A study of Mus musculus with 58 samples.

Results

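F8 and Pim2 are X-linked genes whose RNA from the Xist-bearing X stayed high in neural precursor cultures with a mutated SPOC domain of SPEN. They were chosen by measured values, as the pair of genes with the largest rise of the Dom share in the SPOC line against the parental line on NPC day 6, among 246 X-linked genes with an allelic ratio, and so make up 2 of those 246 genes and 2 of the 22556 genes counted. The Dom share is the percentage of allele-assigned fragments of a gene that come from the X chromosome of domesticus type (Dom), which carries the inducible Xist, rather than from the castaneus X (Cast). A share near 50% means equal RNA from both alleles, and a share that falls after induction of Xist is the readout of silencing. Because the SPOC and parental libraries of NPC day 6 chose the genes, their values there are given as a description with no test.

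The measurements come from chromatin-associated RNA sequencing (ChrRNA-seq), which enriches nascent RNA, in 58 libraries of female hybrid mouse embryonic stem cells (ES, 129S x Cast) and of cells differentiating to neural precursors (NPC). All 6 lines carry a TetOn promoter in place of the Xist promoter on the 129S (Dom) allele, driven by doxycycline at 1 ug/mL. The lines are iXist-ChrX-Dom (the parental line, WT), WT with point mutations in the SPOC domain of Spen (SPOC), WT with an FKBP12 degron on PCGF3 and PCGF5 (PCGF35), PCGF35 with the SPOC mutation (PCGF35_SPOC), WT with a deletion of the B/C repeat region of Xist, also called PID (DelPID), and DelPID with the SPOC mutation (DelPID_SPOC, where the title alone of each library states the mutation). PCGF35 and PCGF35_SPOC were either untreated or given dTAG-13, which triggers degradation of the tagged proteins, at a labelled 100 uM from 12 hours before doxycycline. Libraries stand for ES cells on day 0 (no doxycycline) and day 1, and NPC cultures on days 3 and 6 of doxycycline. The SPOC groups of ES days 0 and 1 hold 3 libraries, of clones C11, D9 and H1, and the other 26 groups hold 2. SPOC NPC replicates 1 and 2 are clones D9 and H1, PCGF35_SPOC replicates are clones F10 and F6, and DelPID_SPOC replicates are clones A8 and G3, so within mutant groups the spread includes differences between clones. ES libraries of WT and DelPID were not analysed here. The study describes clone G of DelPID_SPOC as tetraploid and reads an upward skew of the Dom share in NPC cultures of a PCGF35_SPOC clone as selection for cells that lost the Cast X.

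Xist coats the chromosome it is made from and recruits SPEN, an RNA-binding repressor. The SPOC domain of SPEN binds the corepressors NCoR and SMRT, which bring histone deacetylase activity to active genes. The B/C repeat region of Xist recruits, through HNRNPK, Polycomb complexes that contain PCGF3 or PCGF5 and that ubiquitinate histone H2A. F8 encodes coagulation factor VIII, the cofactor of factor IX in the clotting cascade, a protein released mainly by endothelial cells and carried in blood by von Willebrand factor. Pim2 encodes a constitutively active serine/threonine kinase of the PIM family, whose members are induced by cytokine signalling through STAT factors and support survival and cap-dependent translation.

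In mm10 coordinates F8 lies on the minus strand at chrX:75172714-75380041, a span of 207328 bases at a distance of 28.3 Mb from Xist. Pim2 lies on the plus strand at chrX:7878305-7883432, a span of 5128 bases 95.6 Mb from Xist. The annotated end of Otud5, on the same strand as Pim2, is 1679 bases before the start of Pim2, and Slc35a2, also on that strand, starts 811 bases after its end. Fundc2 starts 2357 bases beyond the start site of F8 on the other strand, and Mpp1 ends 41765 bases from the other end of F8. Fragments were counted over the whole annotated span of a gene on the annotated strand, introns included, so RNA of Otud5 that runs past its end would be counted with Pim2.

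The promoters are shown because both genes were selected for the same response from start sites of unlike composition. Each window runs from 250 bases before to 50 bases after the start site in RefSeq (GRCm38.p6), at chrX:7878056-7878355 on the plus strand for Pim2 and chrX:75379992-75380291 on the minus strand for F8. Capitals mark every match to a searched motif.
Pim2: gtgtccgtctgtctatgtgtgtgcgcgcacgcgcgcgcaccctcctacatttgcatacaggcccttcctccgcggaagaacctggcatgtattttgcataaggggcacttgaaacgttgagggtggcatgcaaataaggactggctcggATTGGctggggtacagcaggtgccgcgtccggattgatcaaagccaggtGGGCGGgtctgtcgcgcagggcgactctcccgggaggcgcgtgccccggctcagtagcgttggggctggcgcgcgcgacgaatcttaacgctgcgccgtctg
F8: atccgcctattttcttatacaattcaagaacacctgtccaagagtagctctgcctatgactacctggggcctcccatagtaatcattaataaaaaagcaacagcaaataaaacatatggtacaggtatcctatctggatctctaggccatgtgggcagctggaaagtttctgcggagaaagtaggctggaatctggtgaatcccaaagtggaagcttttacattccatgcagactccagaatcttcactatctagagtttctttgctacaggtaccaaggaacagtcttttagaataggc
The Pim2 window holds 31 CpG dinucleotides at 62.7% GC, more than 91.3% of the promoter windows of the genes with an allelic ratio. By contrast the F8 window holds 2 CpG at 42.3% GC, and 4.33% of those windows hold fewer. The median was 16 CpG over windows of genes with an allelic ratio, of which 196 symbols matched, and 7 over all windows. The letters searched on both strands were CACGTG for the E box, GGGCGG for the GC box, CCAAT for the CCAAT box, TATAAA for the TATA box, TTCNNNGAA for the STAT site, TGGGAA for the RBPJ core and AANATGGC for the YY1 core. A STAT site can overlap or contain an RBPJ core. Pim2 holds a GC box 52 bases before the start on the plus strand and a CCAAT box, read as ATTGG, 101 bases before it on the minus strand. None of these letters occur in the F8 window. GGGCGG is found in 35.7% of all windows and 60.6% of those of the genes with an allelic ratio, and CCAAT in 37.4% and 44.9%.

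Library totals lay between 2.29 M and 30.0 M counted fragments (M for mega), with a median of 15.9 M, and the lowest were replicates 1 of DelPID on NPC days 6 and 3 at 2.29 M and 6.37 M. Xist RNA was between 34.2 and 135 counts per mega (CPM) in the 13 libraries of day 0 and between 2377 and 13370 CPM in the 45 induced libraries. Total counts cannot check a point mutation, but Spen RNA was 71.4 to 208 CPM in the libraries without the SPOC mutation and 199 to 848 CPM in those with it. Within each line and its mutant the ranges did not overlap. On the log2 scale Spen was higher by 1.76 ± 0.40 in SPOC against WT on NPC day 3, by 1.63 ± 0.40 in PCGF35_SPOC against PCGF35 and by 1.77 ± 0.41 in DelPID_SPOC against DelPID on NPC day 6 (edgeR, adjusted p = 0.126, 0.316 and 0.136, not called). Without dTAG-13, Xist RNA of mutant libraries lay below that of their parent in each NPC comparison except the DelPID pair on day 3. There the ranges overlapped (4944 to 8283 against 6475 to 9110 CPM). In the libraries that chose the genes it was 4507 to 5261 CPM in SPOC against 7744 to 9007 CPM in WT. In the PCGF35 pair on NPC day 3 it was 4471 to 5774 against 7086 to 8345 CPM. In the pairs tested Xist RNA was 3788 to 3975 CPM in SPOC against 4650 to 5142 CPM in WT on NPC day 3. On NPC day 6 it was 4488 to 7783 against 10925 to 13370 CPM in the PCGF35 pair. In the DelPID pair that day it was 6466 to 6973 against 8554 to 10732 CPM. These log2 differences of Xist were -0.29 ± 0.31, -1.01 ± 0.31 and -0.62 ± 0.31 (adjusted p = 0.866, 0.459 and 0.651, not called), and their part in the shares was not tested. F8 had 46 to 692 allelic fragments per library (median 177) and Pim2 had 7 to 295 (median 51.5), so shares of Pim2 are the less precise of the pair. In ES cells Pim2 had a median of 41 allelic fragments. Intervals below are 95% Wilson intervals for counting error only. According to the study's figure legends the NPC replicates of WT and of DelPID were duplicate experiments, each run beside a SPOC-mutant clone, but the labels do not say which replicate ran beside which clone, so these were not paired. P-values measure the spread between these libraries.

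In WT cells F8 had a Dom share of 8.18% (9 of 110 fragments) and 6.74% (6 of 89) on NPC day 6, a mean of 7.46% ± 1.02 (SD, n = 2). SPOC clones D9 and H1 had 68.8% (86 of 125, interval 60.2% to 76.3%) and 59.4% (57 of 96, interval 49.4% to 68.7%), a mean of 64.1% ± 6.66. The X chromosome as a whole, as the median over the 246 genes, averaged 8.59% in WT and 33.5% in SPOC, so F8 differed from the chromosome by 30.6 points in SPOC and by -1.13 points in WT. Pim2 had 10.4% (12 of 115) and 5.88% (2 of 34) in WT, and 51.3% (58 of 113, interval 42.2% to 60.3%) and 65.8% (25 of 38, interval 49.9% to 78.8%) in SPOC. Its means were 8.16% ± 3.22 and 58.6% ± 10.2. These libraries were used to choose the genes.

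By mean of library shares the rise was 56.6 points for F8 and 50.4 points for Pim2, against a median rise of 22.0 points over the 246 genes. Just outside the choice stood Mir669m-2, a microRNA gene with a rise of 49.1 points on 12 to 26 fragments per library. With counts pooled over replicates instead, F8 stayed first at 57.2 points and Pim2 was number 5 at 45.6 points. Pim2 had 34 and 38 fragments in replicate 2 of the 2 groups.

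**Figure D1:**
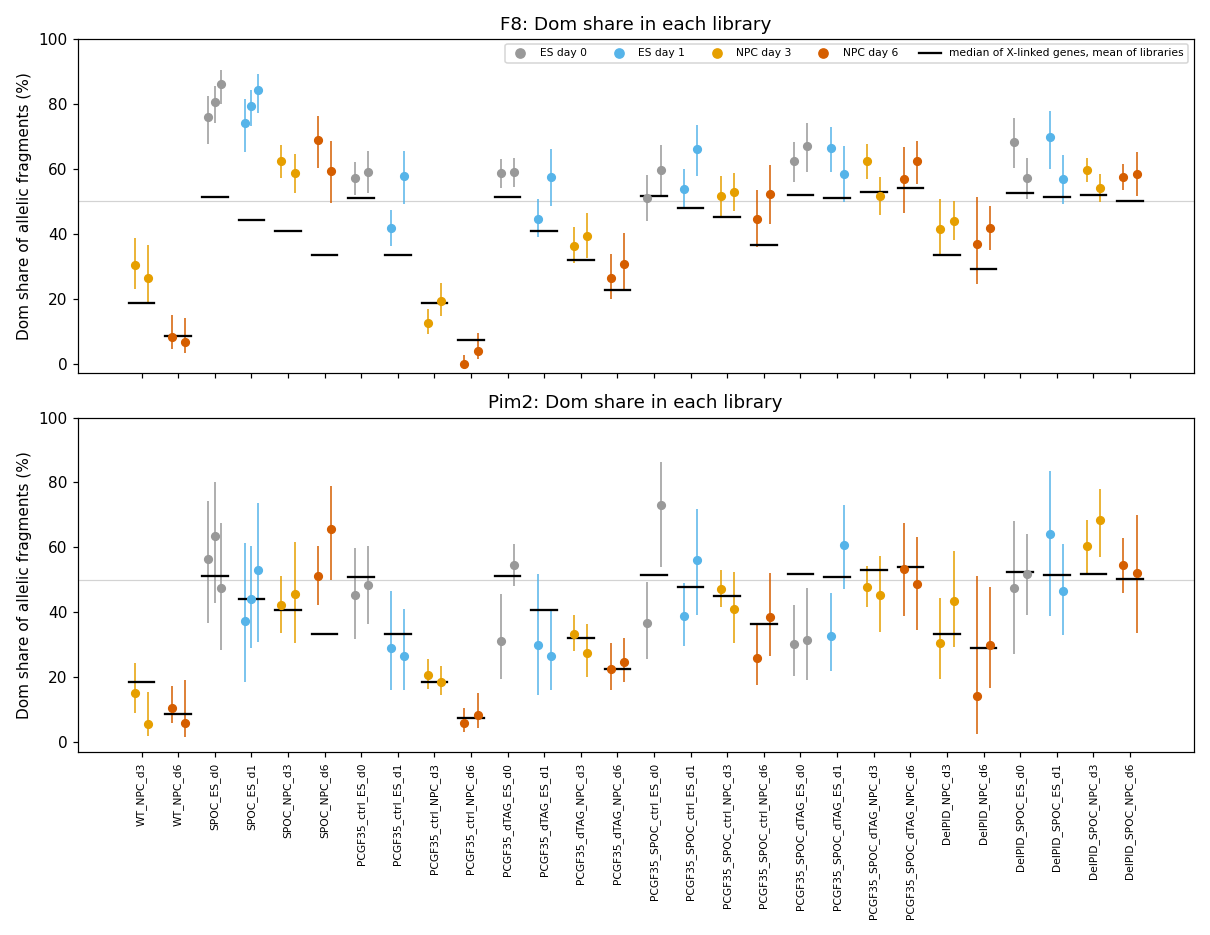
Dom share of F8 and Pim2 in percent (vertical axis) for every library, by line, treatment and day (horizontal axis), with 1 point per library, bars for 95% Wilson intervals and a black line at the mean over libraries of the median of the 246 genes. F8 sits between 75.8% and 86.1% in SPOC ES cells on day 0 and at 0% and 3.77% in untreated PCGF35 on NPC day 6, and Pim2 runs from 5.66% to 73.1% over all libraries.

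On NPC day 3, in libraries that did not choose the genes, the Dom share of both genes was again higher in SPOC than in WT. F8 had 30.3% (40 of 132) and 26.4% (23 of 87) in WT and 62.3% (207 of 332) and 58.6% (153 of 261) in SPOC clones D9 and H1. Pim2 had 15.3% (13 of 85) and 5.66% (3 of 53) in WT and 42.2% (49 of 116) and 45.7% (16 of 35) in SPOC. The groups did not overlap for either gene. How many of the 246 genes had groups apart was not counted, here or in the comparisons of 2 against 2 libraries below. Such separation is therefore a description and does not set F8 and Pim2 apart from the chromosome. The log2 odds of Dom against Cast rose by 1.93 ± 0.33 (SE) for F8 (adjusted p = 6.40e-07) and by 2.52 ± 0.50 for Pim2 (adjusted p = 7.38e-06), by the quasi-likelihood test of edgeR, fitted to Dom and Cast counts of 246 genes, with Benjamini-Hochberg adjustment and a threshold of 0.05. The same test called 80.9% of the 246 genes, all upward, with a median of 1.47, so being called did not set F8 and Pim2 apart, and by size they were number 75 and number 44. The day 3 cultures are the same clones and lines as those of day 6, so they are not independent of the choice in their biology. In bulk RNA, fewer cells that silence the gene and less silencing in each cell cannot be told apart.

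In the untreated degron line the difference for F8 on NPC day 6 was the largest in log2 odds of the 6 comparisons tested with the mutation. PCGF35 had 41.7% (120 of 288) and 57.7% (79 of 137) for F8 on ES day 1, 12.5% (37 of 295) and 19.2% (43 of 224) on NPC day 3, and 0% (0 of 146) and 3.77% (4 of 106) on NPC day 6. The Wilson interval of 0 of 146 reaches 2.56%, and the limit that 3 counts of the total would set is 2.05%. PCGF35_SPOC clones F10 and F6 had 53.8% and 65.9% on ES day 1, 51.7% and 52.9% on NPC day 3, and 44.4% and 52.2% on NPC day 6. The lines overlapped on ES day 1 and were apart on both NPC days, where F8 in PCGF35_SPOC stayed near equal RNA from both alleles.

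For F8 the log2 odds were higher in PCGF35_SPOC by 0.64 ± 0.30 on ES day 1 (adjusted p = 0.0504, not called), by 2.58 ± 0.29 on NPC day 3 (adjusted p = 5.76e-12) and by 5.81 ± 0.60 on NPC day 6 (adjusted p = 1.43e-13). The shares of the 246 genes called were 66.7%, 86.2% and 90.7%, all upward, with medians of 0.87, 1.78 and 2.74. On NPC day 6 F8 was number 12 of 246 by this value. That value is set by 4 Dom fragments in the control group. Without PCGF35 NPC day 6 replicate 2 the remaining control library has 0 Dom fragments and the fitted value of 10.7 depends on the prior count, so it is no bound. The ES day 1 difference for F8 passed the threshold without PCGF35 replicate 2 (0.98, adjusted p = 0.00974), without PCGF35_SPOC replicate 1 (1.10, adjusted p = 0.0174) and when only the compared groups were fitted (0.65, adjusted p = 0.0121), while it was 0.046 (adjusted p = 0.922) without PCGF35 replicate 1 and 0.37 (adjusted p = 0.330) without PCGF35_SPOC replicate 2.

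Pim2 moved with the bulk of the chromosome in this pair of lines. PCGF35 had 29.0% (9 of 31) and 26.7% (12 of 45) on ES day 1, 20.7% (61 of 295) and 18.6% (52 of 280) on NPC day 3, and 5.92% (10 of 169) and 8.33% (9 of 108) on NPC day 6. PCGF35_SPOC had 38.9% and 56.2%, then 47.2% and 41.1%, then 25.9% and 38.5% on the same days. The groups did not overlap on any of these days, a separation that was not counted over the 246 genes. The differences were 1.01 ± 0.52 (adjusted p = 0.0807, not called), 1.79 ± 0.28 (adjusted p = 4.48e-08) and 2.58 ± 0.50 (adjusted p = 3.46e-06), and on NPC day 6 Pim2 was number 139 of 246. The ES day 1 difference of Pim2 passed the threshold without PCGF35_SPOC replicate 1 (1.74, adjusted p = 0.0380) and with limma on ratios of at least 10 fragments (0.197 as a fraction, adjusted p = 0.0474).

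Where Xist lacked the region that recruits Polycomb, both genes had higher Dom shares with the SPOC mutation than without it. In DelPID F8 had 41.5% (49 of 118) and 44.0% (110 of 250) on NPC day 3 and 37.0% (17 of 46) and 41.7% (85 of 204) on NPC day 6. Pim2 had 30.6% (15 of 49) and 43.6% (17 of 39), then 14.3% (1 of 7) and 30.0% (9 of 30). DelPID_SPOC clones A8 and G3 had 59.7% and 54.0%, then 57.5% and 58.5% for F8, and 60.3% and 68.5%, then 54.6% and 52.0% for Pim2. Every DelPID_SPOC library lay above every DelPID library of its day for both genes.

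The differences in log2 odds were 0.81 ± 0.26 (adjusted p = 0.00510) and 1.00 ± 0.31 (adjusted p = 0.00391) for F8, and 1.60 ± 0.45 (adjusted p = 0.00162) and 1.66 ± 0.65 (adjusted p = 0.0205) for Pim2, on days 3 and 6. The test called 70.7% and 71.1% of the genes on these days, with medians of 0.98 and 1.08, and on day 6 F8 was number 137 and Pim2 number 62 of 246. These calls are less firm than those above. The F8 call was lost on day 3 without DelPID_SPOC replicate 1 (0.63, adjusted p = 0.0612) and on day 6 without DelPID replicate 2 (1.23, adjusted p = 0.0954). The Pim2 call was lost on day 3 without DelPID replicate 1 (1.17, adjusted p = 0.0887), and on day 6 without DelPID replicate 1 (1.45, adjusted p = 0.0631), without DelPID replicate 2 (2.81, adjusted p = 0.131) or without DelPID_SPOC replicate 1 (1.54, adjusted p = 0.126).

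Over the 6 strata of line pair and day that did not choose the genes, the SPOC mutation went with a Dom share higher by 26.3 points for F8 and by 26.9 points for Pim2, and higher in 6 of 6 strata for each. The median difference over the 246 genes was also upward in every stratum, from 13.7 to 26.4 points. Other genes were not put through the test below, so it does not set F8 and Pim2 apart from the chromosome. The exact two-sided permutation test within strata gave p = 8.57e-05 for F8 and p = 4.29e-05, the smallest these permutations can give, for Pim2, both 0.000257 after adjustment over the 6 such tests made. Libraries of a clone on several days were treated as independent in it, and 3 of the strata share the PCGF35 line, so the p-value counts more independent samples than there were clones.

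**Figure D2:**
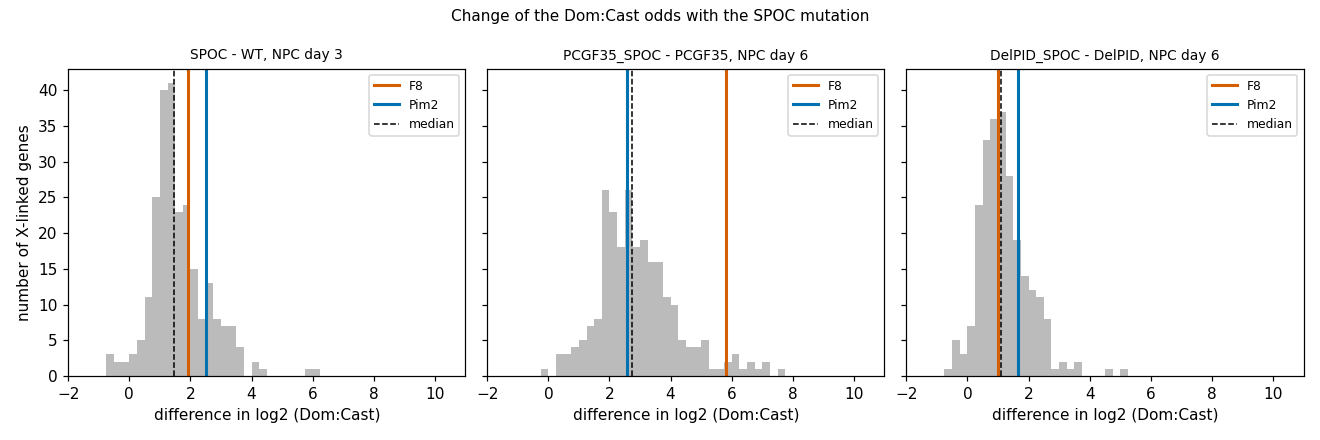
Number of X-linked genes (vertical axis) by difference in log2 odds of Dom against Cast (horizontal axis) for SPOC against WT on NPC day 3 and for the PCGF35 and DelPID pairs on NPC day 6, with lines at F8, Pim2 and the median of 246 genes. F8 lies at 1.93, 5.81 and 1.00 and Pim2 at 2.52, 2.58 and 1.66, against medians of 1.47, 2.74 and 1.08.

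Treatment with dTAG-13 went with a higher Dom share of both genes on NPC days 3 and 6 in the line with an intact SPOC domain. With dTAG-13 F8 in PCGF35 had 44.6% and 57.5% on ES day 1, 36.3% (101 of 278) and 39.2% (73 of 186) on NPC day 3, and 26.3% (41 of 156) and 30.8% (32 of 104) on NPC day 6. Pim2 had 30.0% and 26.7%, then 33.5% (94 of 281) and 27.5% (30 of 109), then 22.6% (28 of 124) and 24.7% (38 of 154). Treated and untreated libraries overlapped on ES day 1 and were apart on both NPC days for both genes. On NPC day 6 the untreated PCGF35_SPOC libraries had 44.4% and 52.2% for F8 and 25.9% and 38.5% for Pim2. All lay above the PCGF35 libraries given dTAG-13, a comparison that was not tested. The chromosome median of these libraries was apart in the same way, at 32.8% and 40.2% against 22.5% and 22.8%. In each untreated PCGF35_SPOC library F8 lay above that median and Pim2 below it. The separation therefore does not set F8 and Pim2 apart from the chromosome.

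On ES day 1 the change with dTAG-13 was 0.10 ± 0.30 for F8 (adjusted p = 0.841) and 0.0053 ± 0.66 for Pim2 (adjusted p = 0.998), where 15.9% of genes were called. On NPC day 3 it was 1.71 ± 0.31 for F8 (adjusted p = 7.96e-06) and 0.92 ± 0.28 for Pim2 (adjusted p = 0.00529), where 61.4% were called and the median was 0.94. On NPC day 6 it was 4.56 ± 0.66 for F8 (adjusted p = 2.15e-08) and 2.07 ± 0.44 for Pim2 (adjusted p = 4.36e-05), where 78% were called and the median was 1.89. Treated and untreated PCGF35 share the control groups with the comparison of lines above. For F8 the day 6 value again rests on 0 and 4 Dom fragments in the controls, and it was 9.49, with a control of 0 Dom fragments, without PCGF35 replicate 2. The Pim2 calls were lost with limma on the ratios, at 0.109 (adjusted p = 0.283) on day 3 and 0.165 (adjusted p = 0.0945) on day 6 as fractions, and the day 3 call without dTAG-13 replicate 1 (0.64, adjusted p = 0.202). Over the 3 days the share was higher by 16.7 points for F8 and 9.28 points for Pim2, in 3 of 3 strata each (exact two-sided stratified permutation, p = 0.0278, adjusted p = 0.0417 for each gene). The median difference over the 246 genes was 6.19 points on ES day 1 and 10.8 and 14.7 points on NPC days 3 and 6. Other genes were not put through this permutation, so it does not set either gene apart from the chromosome. The 3 days of the line were treated as independent in it.

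In PCGF35_SPOC, dTAG-13 went with a higher share of Pim2 on NPC day 6, and no change of F8 was called. Clone F10 with dTAG-13 stood apart, with a chromosome median of 55.7% on NPC day 3 and 57.9% on NPC day 6, against 50.3% and 50.0% in clone F6, and the part of this skew in the change was not tested. F8 had 66.3% and 58.5% on ES day 1, 62.4% and 51.6% on NPC day 3, and 56.8% (50 of 88) and 62.3% (127 of 204) on NPC day 6 for clones F10 and F6. Pim2 had 32.7% and 60.8%, then 48.0% and 45.5%, then 53.5% (23 of 43) and 48.8% (21 of 43). Treated libraries overlapped untreated ones until NPC day 6, when they were above them for both genes. There the change was 0.71 ± 0.36 for F8 (adjusted p = 0.0678) and 1.23 ± 0.49 for Pim2 (adjusted p = 0.0216), where 71.1% of genes were called and the median was 0.95. With the clone as a replicate block F8 passed the threshold at 0.70 (adjusted p = 0.0485). The Pim2 call was lost without untreated replicate 1 (0.74, adjusted p = 0.314), without dTAG-13 replicate 1 (1.10, adjusted p = 0.134) and with the compared groups alone (1.23, adjusted p = 0.129).

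On ES day 1 the changes in PCGF35_SPOC were 0.27 ± 0.32 for F8 (adjusted p = 0.836) and 0.16 ± 0.46 for Pim2 (adjusted p = 0.961). No gene, 0%, was called there by edgeR, where 18 genes had an unadjusted p under 0.05 and limma called 0. On NPC day 3 they were 0.28 ± 0.26 (adjusted p = 0.488) and 0.092 ± 0.29 (adjusted p = 0.907), where 26% of genes were called. Over the 3 days the shares were higher by 6.16 points for F8 (exact two-sided stratified permutation, p = 0.0926, adjusted p = 0.111; 0.44 points without replicate 1, clone F10, and 11.9 points without replicate 2, clone F6) and by 6.90 points for Pim2 (exact p = 0.278, adjusted p = 0.278). The median difference over the 246 genes was 2.62, 6.65 and 16.0 points on these days.

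The change with dTAG-13 was smaller for F8 in PCGF35_SPOC than in PCGF35. The difference of the changes was -1.43 ± 0.41 on NPC day 3 (adjusted p = 0.0203), where 9.35% of genes were called, and -3.84 ± 0.82 on NPC day 6 (adjusted p = 0.000726), where 15.4% were called and the median was -0.80. For Pim2 it was -0.83 ± 0.41 (adjusted p = 0.182) and -0.84 ± 0.68 (adjusted p = 0.402). The F8 calls were lost on the scale of ratios, where limma gave -0.172 as a fraction on day 3 (adjusted p = 0.152) and -0.154 on day 6 (adjusted p = 0.210). The day 6 call was also lost without PCGF35 untreated replicate 1, the library with 0 Dom fragments (-2.59, adjusted p = 0.111), and without PCGF35 untreated replicate 2 the value was -8.78. The day 3 call was lost with all X-linked genes in the fit (-1.43, adjusted p = 0.0758) and without each of 5 libraries: PCGF35 untreated replicate 1 (-1.06, adjusted p = 0.201) and replicate 2 (-1.78, adjusted p = 0.0756), PCGF35 dTAG-13 replicate 2 (-1.35, adjusted p = 0.148), PCGF35_SPOC untreated replicate 1 (-1.47, adjusted p = 0.0543) and PCGF35_SPOC dTAG-13 replicate 2 (-1.12, adjusted p = 0.197).

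Before induction F8 did not start from equal RNA in the SPOC line. In SPOC ES cells on day 0 its share was 75.8% (94 of 124, interval 67.6% to 82.5%) in clone C11, 80.5% (149 of 185, interval 74.2% to 85.6%) in D9 and 86.1% (142 of 165) in H1. The 10 day 0 libraries of the other lines ran from 51.0% to 68.4% with a mean of 59.9% ± 5.02 (SD, n = 10), against 80.8% ± 5.13 (n = 3) in SPOC. The groups were apart by 20.9 points in mean. The median of the 246 genes was 51.3% in SPOC on that day, so F8 exceeded the chromosome by 29.5 points before Xist was induced.

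By size of that day 0 difference F8 was number 2 of 246 genes, after Nap1l2, a nucleosome assembly protein gene with a median of 12 allelic fragments in SPOC, and 2.85% of the genes, 7 of 246, had SPOC libraries apart from all others. The comparison was made after these values were seen. Against untreated PCGF35 the log2 odds of F8 were higher by 1.64 ± 0.29 (adjusted p = 6.90e-05; 0.813% of genes called), against untreated PCGF35_SPOC by 1.83 ± 0.32 (adjusted p = 5.37e-05; 0.407% called) and against DelPID_SPOC by 1.43 ± 0.31 (adjusted p = 0.00623; 0.407% called). F8 was the gene called against PCGF35_SPOC and against DelPID_SPOC. These calls share the SPOC libraries. The call against PCGF35_SPOC was lost without its replicate 1 (1.55, adjusted p = 0.109). The call against DelPID_SPOC was lost without DelPID_SPOC replicate 2 (0.99, adjusted p = 0.811), without SPOC replicate 3 (1.19, adjusted p = 0.0904) and with limma on the ratios (0.180 as a fraction, adjusted p = 0.0805).

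By allele, Cast RNA of F8 was 1.62 to 2.16 CPM in the SPOC libraries of day 0 and 2.85 to 11.01 CPM in the other libraries, which did not overlap. Dom RNA was 6.00 to 10.0 CPM in SPOC and 4.50 to 15.6 CPM in the others, which did. How many other genes had Cast RNA apart in this way was not counted. The RNA of single alleles was not tested between lines on day 0. In SPOC the mean of Cast RNA was 1.90 ± 0.27 CPM on day 0, 1.79 ± 0.16 CPM on ES day 1, and 7.26 ± 0.10 and 3.25 ± 0.30 CPM on NPC days 3 and 6, where no library of clone C11 was analysed. For Pim2 the day 0 shares were 56.5%, 63.6% and 47.6% on 21 to 23 fragments in SPOC and 30.3% to 73.1% in the other lines, which overlapped. Its differences were 0.51 ± 0.53, 0.46 ± 0.55 and 0.31 ± 0.57 (adjusted p = 0.993, 0.993 and 0.980). No ES library of the parental line was analysed here, so whether the skew of F8 was there before the mutation is not known. PCGF35_SPOC and DelPID_SPOC also carry the SPOC mutation. Their mean day 0 shares of F8 were 55.3% (PCGF35_SPOC untreated), 64.7% (PCGF35_SPOC with dTAG-13) and 62.8% (DelPID_SPOC). The parts of the mutation and of the derivation of the SPOC clones in the skew were not tested.

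**Figure D3:**
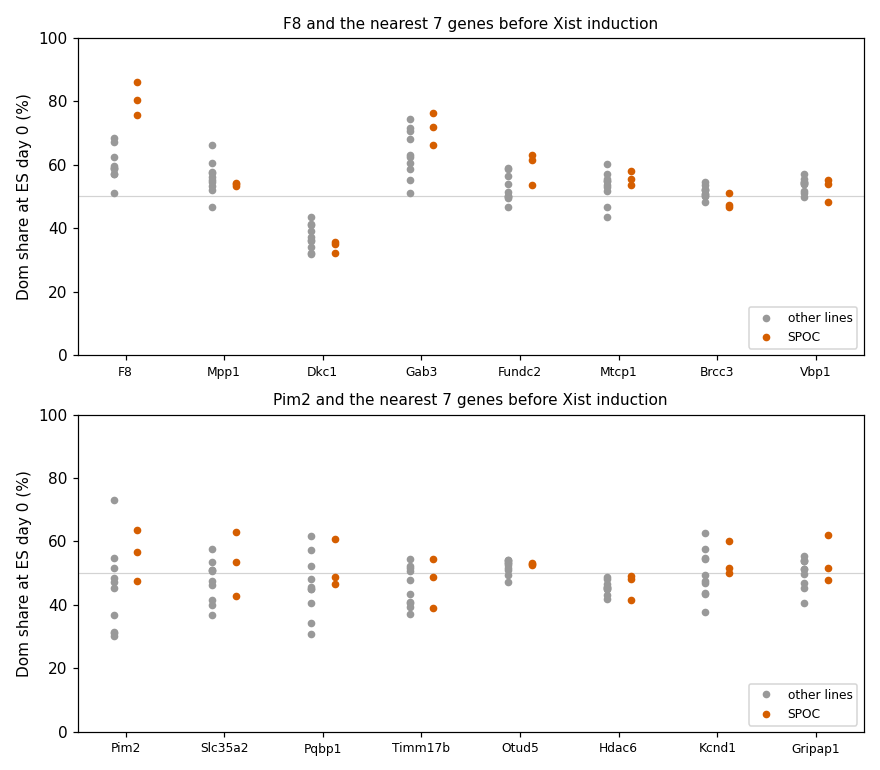
Dom share in percent before induction (ES day 0) of F8 and Pim2 (vertical axis), each beside the nearest 7 genes (horizontal axis), with 1 point per library, SPOC libraries set against those of the other lines. The 3 SPOC points of F8 lie between 75.8% and 86.1%, above the 51.0% to 68.4% of the 10 other libraries, and none of the neighbouring genes has SPOC points apart from all others.

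Against this start, F8 and Pim2 can be followed over time within a line. In SPOC on ES day 1 F8 had 74.1%, 79.2% and 84.2% and Pim2 37.5%, 44.1% and 52.9%, changes of -0.15 ± 0.32 (adjusted p = 0.752) and -0.64 ± 0.58 (adjusted p = 0.432), where 32.5% of the 246 genes were called, all downward. By NPC day 3 F8 had changed by -1.48 ± 0.29 from day 0 (adjusted p = 1.19e-05) and Pim2 by -0.75 ± 0.50 (adjusted p = 0.227), where 45.9% of genes were called and the median was -0.60. In mean share, F8 went from 80.8% (clones C11, D9 and H1) to 60.5% (D9 and H1), and it stayed above the chromosome by 19.7 points. In D9 and H1 alone it went from 80.5% and 86.1% to 62.3% and 58.6%. Mean Dom RNA of F8 was 8.32 CPM on day 0 and 11.2 CPM on NPC day 3, and mean Cast RNA was 1.90 and 7.26 CPM. The share thus fell with higher Cast RNA and without lower Dom RNA. Day 6 of SPOC was not tested against day 0 because it chose the genes.

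In untreated PCGF35 the shares of both genes fell. F8 went from 57.1% and 59.1% on day 0 to 0% and 3.77% on NPC day 6, a change of -6.37 ± 0.52 (adjusted p = 3.23e-18), and Pim2 from 45.5% and 48.4% to 5.92% and 8.33%, a change of -3.59 ± 0.49 (adjusted p = 8.52e-10). There 98.4% of genes were called, and the median was -3.70. Without PCGF35 NPC day 6 replicate 2 the fitted value of F8 was -11.3, since the other library has 0 Dom fragments. In that replicate 2, 71 of the 245 other genes had a lower share than F8.

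In PCGF35_SPOC and DelPID_SPOC no fall of either gene by NPC day 6 was called. In untreated PCGF35_SPOC F8 went from 51.0% and 59.6% to 44.4% and 52.2% (-0.37 ± 0.34, adjusted p = 0.334) and Pim2 from 36.7% (22 of 60) and 73.1% (19 of 26) to 25.9% and 38.5% (-1.05 ± 0.49, adjusted p = 0.0546), where 62.2% of genes were called. The Pim2 fall passed the threshold with the clone as a replicate block (-1.08, adjusted p = 0.0379), with limma (-0.227 as a fraction, adjusted p = 0.0257), without day 0 replicate 1 (-2.59, adjusted p = 0.00203) and without NPC day 6 replicate 2 (-1.40, adjusted p = 0.0255). With dTAG-13 in PCGF35_SPOC F8 went from 62.3% and 67.1% on day 0 to 56.8% and 62.3% (-0.23 ± 0.33, adjusted p = 0.841), and Pim2 from 30.3% and 31.6% to 53.5% and 48.8% (1.23 ± 0.51, adjusted p = 0.291), where 0.407% of genes were called. In DelPID_SPOC F8 went from 68.4% and 57.2% to 57.5% and 58.5% (-0.22 ± 0.28, adjusted p = 0.820) and Pim2 from 47.4% and 51.7% to 54.6% and 52.0% (0.20 ± 0.49, adjusted p = 0.938), where 1.63% were called. On ES day 1 of DelPID_SPOC the shares were 69.7% and 56.8% for F8 and 64.3% and 46.7% for Pim2.

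The falls were also compared between lines, in tests added after the values were seen, which remove the different starts. From day 0 to NPC day 3 the log2 odds of F8 fell less in SPOC than in untreated PCGF35 by 1.43 ± 0.42 (adjusted p = 0.00249), and those of Pim2 differed by 1.12 ± 0.65 (adjusted p = 0.118), where 67.9% of genes were called and the median was 1.45. From day 0 to NPC day 6 the fall was smaller in PCGF35_SPOC than in PCGF35 by 6.00 ± 0.70 for F8 (adjusted p = 1.55e-11) and by 2.54 ± 0.71 for Pim2 (adjusted p = 0.00103), where 87% of genes were called and the median was 2.74. The F8 value on day 3 lost its call without PCGF35 NPC day 3 replicate 1 (1.05, adjusted p = 0.0507), and on day 6 it was 10.9 without PCGF35 replicate 2. The Pim2 call was lost without PCGF35_SPOC day 0 replicate 1 (1.00, adjusted p = 0.316) and with limma (0.171 as a fraction, adjusted p = 0.200).

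To ask whether a gene moved by another amount than the chromosome, the median of the 246 genes was subtracted from the ratio in each library and limma was applied. The percentages of genes called were 16.7% for SPOC against WT on NPC day 3, 13.8%, 26.4% and 24% for PCGF35_SPOC against PCGF35 on ES day 1 and NPC days 3 and 6, and 25.2% and 31.7% for DelPID_SPOC against DelPID on NPC days 3 and 6. F8 was called in the PCGF35 pair on NPC day 6 alone, where it rose by 17.4 ± 5.26 points (SE) more than the chromosome (adjusted p = 0.0149). That call was lost without PCGF35 replicate 1 (0.164 as a fraction, adjusted p = 0.0883) or replicate 2 (0.183, adjusted p = 0.0518) and without PCGF35_SPOC replicate 1 (0.175, adjusted p = 0.0596). In the other 5 comparisons F8 differed from the chromosome by -4.42 to 9.93 points and Pim2, over all 6, by -4.04 to 11.2 points, with none called.

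For dTAG-13 in PCGF35 1.63% of genes were called relative to the chromosome on NPC day 3 and 8.94% on NPC day 6. F8 exceeded the chromosome by 8.62 ± 5.26 points (adjusted p = 0.444) and 11.4 ± 5.26 points (adjusted p = 0.177) on these days, and the day 6 value was called on the log2 odds scale (3.29, adjusted p = 2.87e-05). That scale adds 0.5 to each count. With 0 and 4 Dom fragments of F8 in the untreated libraries, the value of 3.29 depends on this constant. Pim2 differed from it by -2.43 and 1.24 points.

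Genes near F8 and Pim2 were called about as often as the 246 genes as a whole, of which 80.9% were called in SPOC against WT on NPC day 3 and 90.7% in PCGF35_SPOC against PCGF35 on NPC day 6. Of 7 genes with a ratio within 500 kb of F8, 6 were called in SPOC against WT on NPC day 3, with a median of 1.14, and 7 in PCGF35_SPOC against PCGF35 on NPC day 6, with a median of 3.24, beside 1.93 and 5.81 for F8 itself. Ordered by the distance between lowest coordinates, which also sets the 500 kb, the nearest are Mpp1, a membrane scaffold gene, Dkc1, which encodes the pseudouridine synthase dyskerin, Gab3 and Fundc2. Pooled shares in SPOC NPC day 6 were 51.7% for Mpp1, 41.3% for Dkc1, 41.6% for Gab3 and 54.0% for Fundc2, so Fundc2, across from the start site of F8, was the highest of the 4. In log2 odds Fundc2 was at 2.04 in SPOC against WT on NPC day 3 and at 5.74 in the PCGF35 pair on NPC day 6. These values lie near those of F8. By the rise that chose the genes Fundc2 was number 6 of 246, so a large rise was not particular to F8 at this locus.

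Of 24 genes within 500 kb of Pim2, 18 were called on NPC day 3, with a median of 1.23, and 23 in the degron pair on NPC day 6, with a median of 2.19, beside 2.52 and 2.58 for Pim2. The nearest are Slc35a2, a UDP-galactose transporter, Pqbp1, Timm17b and Otud5, a deubiquitinase. Their pooled shares in SPOC NPC day 6 were 44.8%, 33.3%, 41.2% and 48.1%. In WT on the same day Otud5 was at 21.9% while Pim2 was at 9.40%. On day 0 none of the 7 and none of the 24 neighbours had SPOC libraries apart from the rest.

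By allele, Dom RNA of both genes was higher with the mutation on NPC day 3, and Cast RNA was not called. In SPOC on NPC day 3 Dom RNA of F8 was 12.2 and 10.2 CPM against 2.89 and 1.35 CPM in WT, and that of Pim2 was 2.88 and 1.07 CPM against 0.940 and 0.176 CPM. Cast RNA of F8 was 7.34 and 7.19 CPM against 6.65 and 3.76 CPM, and that of Pim2 3.93 and 1.27 CPM against 5.21 and 2.94 CPM. Dom RNA rose by 2.46 ± 0.51 for F8 (adjusted p = 6.98e-05) and 1.94 ± 0.77 for Pim2 (adjusted p = 0.0217) on the log2 scale, where 80.1% of 246 genes were called, while no gene, 0%, was called for Cast RNA by edgeR, with 7 genes at an unadjusted p under 0.05. The Pim2 call was lost without WT replicate 2 (1.15, adjusted p = 0.247) or SPOC replicate 1 (1.08, adjusted p = 0.321), and the value was 3.45 without WT replicate 1. No other tool was run on single alleles.

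In PCGF35_SPOC against PCGF35 on NPC day 6 Dom RNA of F8 was higher by 4.70 ± 0.82 (adjusted p = 2.70e-06) and that of Pim2 by 1.10 ± 0.80 (adjusted p = 0.191), where 87% of genes were called. Cast RNA was called for no gene (0%, with 31 genes at an unadjusted p under 0.05) and was lower by point estimate for both, at -1.11 ± 0.54 (adjusted p = 0.385) for F8 and -1.51 ± 0.64 (adjusted p = 0.316) for Pim2. Without PCGF35 replicate 2 the F8 value was 9.14, against 0 Dom fragments. For Pim2 neither allele was called by itself in this pair of lines.

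For DelPID_SPOC against DelPID on NPC day 6, Dom RNA was called in 61% of genes and in both F8 (1.196 ± 0.52, adjusted p = 0.0451) and Pim2 (2.34 ± 0.89, adjusted p = 0.0239), and Cast RNA in no gene (0%, with 14 at an unadjusted p under 0.05). These allele calls were lost without DelPID replicate 2 (0.60, adjusted p = 0.485 for F8, and 2.26, adjusted p = 0.333 for Pim2) and without DelPID_SPOC replicate 1 (0.50, adjusted p = 0.479, and 0.85, adjusted p = 0.503). With dTAG-13 in PCGF35 on NPC day 6 Dom RNA was called in 75.2% of genes, in F8 (4.07 ± 0.86, adjusted p = 9.41e-05) and in Pim2 (1.76 ± 0.76, adjusted p = 0.0357), and Cast RNA in no gene (0%, with 8 at an unadjusted p under 0.05). The F8 value was 2.65 and 8.503 without PCGF35 untreated replicates 1 and 2, and the Pim2 call was lost without untreated replicate 1 (1.36, adjusted p = 0.236) or 2 (2.09, adjusted p = 0.0517) or dTAG-13 replicate 2 (1.44, adjusted p = 0.155).

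From ES day 0 to NPC day 6 in untreated PCGF35 different alleles were called for the 2 genes. Dom RNA fell in 96.7% of genes, with a log2 change of -5.82 ± 0.77 (adjusted p = 6.75e-09) for F8, whose Cast RNA changed by 0.51 ± 0.51 (adjusted p = 0.507). Pim2 had a Dom change of -0.87 ± 0.78 (adjusted p = 0.276) and a Cast rise of 2.70 ± 0.69 (adjusted p = 0.00552), where 18.7% of genes were called for Cast RNA. Its Cast RNA was 1.49 and 1.73 CPM on day 0 and 10.0 and 10.8 CPM on NPC day 6, while Dom RNA was 1.24 and 1.62 CPM and then 0.630 and 0.980 CPM. The Cast call of Pim2 was lost without day 0 replicate 1 (2.64, adjusted p = 0.0529) or replicate 2 (2.78, adjusted p = 0.0573), and the Dom change of F8 was -10.3 without NPC day 6 replicate 2.

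**Figure D4:**
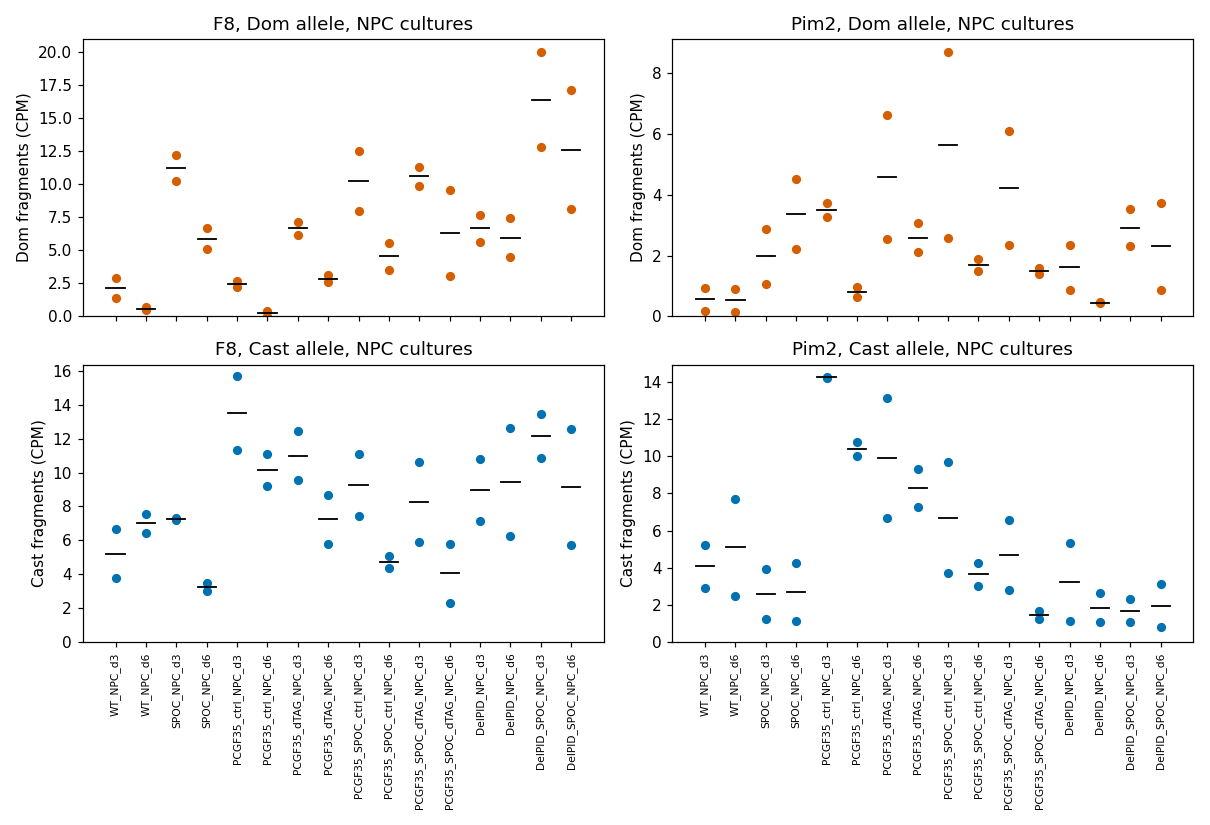
Dom and Cast RNA of F8 and Pim2 in CPM (vertical axes) in the NPC groups (horizontal axis), with 1 point per library and a line at the group mean. In untreated PCGF35 NPC day 6 the Cast RNA of F8 is 9.20 and 11.1 CPM while its Dom RNA is 0 and 0.435 CPM, and in SPOC NPC day 6 they are 3.03 and 3.46 CPM and 6.69 and 5.06 CPM.

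Total RNA of F8 and Pim2 was not called in any comparison of the mutation or of dTAG-13. Over all libraries the median was 22.5 CPM for F8 and 9.17 CPM for Pim2. Per kilobase of gene span the medians were 0.109 CPM for F8 and 1.79 CPM for Pim2, so per length the level of F8 was the lower. By group mean F8 was highest in DelPID_SPOC NPC day 3 (59.4 ± 13.5 CPM, n = 2) and lowest in WT NPC day 6 (14.7 ± 1.96 CPM), and all 27 pairs of neighbours in the order of 28 groups overlapped in range. Pim2 was highest in untreated PCGF35 NPC day 3 (49.0 ± 3.36 CPM) and lowest in SPOC ES day 1 (3.51 ± 0.29 CPM, n = 3), and 26 of 27 neighbours overlapped, the exception being DelPID_SPOC above SPOC on ES day 0.

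In the order of Dom shares 21 of 27 neighbours overlapped for F8 and 25 of 27 for Pim2. F8 was highest in SPOC ES days 0 and 1 and lowest in untreated PCGF35 NPC day 6 (1.89% ± 2.67), with SPOC ES day 1 apart from the next group below, PCGF35_SPOC with dTAG-13 on ES day 0. Pim2 was highest in DelPID_SPOC NPC day 3 (64.4% ± 5.77) and lowest in untreated PCGF35 NPC day 6 (7.13% ± 1.71).

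Across 16227 tested genes total RNA of F8 was higher in SPOC than in WT on NPC day 3 by 1.41 ± 0.51 (adjusted p = 0.427), and that of Pim2 differed by -0.077 ± 0.67 (adjusted p = 0.992). No gene, 0%, was called there by edgeR, where 1239 genes had an unadjusted p under 0.05 and DESeq2 called 26. In PCGF35_SPOC against PCGF35 on NPC day 6 the values were 0.049 ± 0.51 for F8 and -1.02 ± 0.66 for Pim2 (0% called, 990 genes at an unadjusted p under 0.05, 6 by DESeq2). In DelPID_SPOC against DelPID they were 0.68 ± 0.53 and 0.93 ± 0.80 (0.037% called). For dTAG-13 on NPC day 6 they were 0.14 ± 0.51 and 0.21 ± 0.64 in PCGF35 (0% called by edgeR, 761 genes at an unadjusted p under 0.05, 0 by DESeq2) and 0.16 ± 0.51 and -0.92 ± 0.69 in PCGF35_SPOC (0% called, 507 and 1). From ES day 0 to day 1 in SPOC they were -0.24 ± 0.41 and -0.19 ± 0.64 (0.0123% called). Adjusted p-values of F8 and Pim2 in these comparisons were 0.427 or higher.

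From ES day 0 to NPC day 6 in untreated PCGF35, where 31.1% of genes were called, Pim2 rose by 1.85 ± 0.68 (adjusted p = 0.0353), from 7.51 and 9.31 CPM to 27.5 and 32.1 CPM. F8 changed by -0.87 ± 0.51 (adjusted p = 0.188), from 47.3 and 22.3 CPM to 18.1 and 19.6 CPM, and the change was -0.17 without day 0 replicate 1 and -1.33 without day 0 replicate 2. Groups of Pim2 did not overlap, but its call was lost without any of the 4 libraries (1.71 to 2.01, adjusted p from 0.0805 to 0.149). With the replicate number as a block it was 1.84 (adjusted p = 0.0142).

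Cell type markers moved over the same interval, where 31.1% of all genes were called. On the log2 scale 4 of 5 tested ES markers fell, Nanog by 2.14, Klf2 by 2.63, Esrrb by 1.47 and Zfp42 by 3.53. Of 4 tested neural precursor markers 2 rose, Nes by 3.36 and Vim by 1.98. Fabp7 (2.13 ± 1.50, edgeR, adjusted p = 0.285) and Pax6 (-0.87 ± 0.91, adjusted p = 0.491) were not called. The summed ES markers had a median of 1349 CPM in ES libraries (990 to 1925) and 767 CPM in NPC libraries (310 to 1171), and neural markers 36.8 CPM (24.4 to 112) and 54.4 CPM (25.9 to 394), with Sox2 and Sox1 listed at 0 in every library. Feeder fibroblast markers summed to 2.11 to 28.3 CPM in ES and 1.42 to 138 CPM in NPC libraries, where Col1a1 (3.96) and Col1a2 (3.57) rose and Thy1 fell by 1.09. Endothelial markers (Pecam1, Tek, Kdr and Cdh5), of the cell type that makes factor VIII, summed to 113 to 265 CPM in ES and 69.9 to 264 CPM in NPC libraries, with 0 of 4 called. In the other 6 comparisons of total RNA none of the markers of these lists was called, where 0% to 0.037% of all genes were called. PCGF35_SPOC against PCGF35 on NPC day 6 held the largest log2 odds difference of F8 among the tested comparisons of the mutation. There 0% of all genes were called, and the 5 tested ES markers had a median of 1.12. Among them Zfp42 was at 1.65 ± 0.43 (edgeR, adjusted p = 0.338) and Nanog at 1.27 ± 0.42 (adjusted p = 0.545). The part of these markers in the values of F8 and Pim2 was not tested.

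Related genes are given from lists. Of 13 genes of the PIM family and the LIF-STAT3 pathway, 0 were called by edgeR in 6 of the 7 comparisons of total RNA, with medians from -0.32 to 0.13, beside medians over all genes from -0.017 to 0.020. In those 6 comparisons 0% to 0.037% of all genes were called, so this count is near the background. In untreated PCGF35 from ES day 0 to NPC day 6, 1 rose and 3 fell, with a median of -0.26, where 31.1% of all genes were called, so the count is near the background. Bcl2l1, an anti-apoptotic BCL2 relative, rose by 1.72 ± 0.30 (adjusted p = 0.000104). Of those that fell, Socs3, the feedback inhibitor of STAT3 signalling, had -3.07 ± 0.64 (adjusted p = 0.000666), Pim1, the founding kinase of the family, -0.95 ± 0.27 (adjusted p = 0.00782), and Il6st, the shared receptor gp130, -0.95 ± 0.23 (adjusted p = 0.00257). Pim3 had -0.54 ± 0.36 (adjusted p = 0.262), so among the 3 kinases Pim2 rose, Pim1 fell and Pim3 was not called. The most abundant of the list were Il6st (169 CPM), Lifr (134 CPM) and Jak1 (131 CPM).

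Of 10 genes that act with factor VIII in clotting, secretion or clearance, 8 could be tested, F9 and F10 being too low, and 0 were called by edgeR in the same 6 comparisons, with medians from 0.083 to 0.21. This count too is near the background, with 0% to 0.037% of all genes called there. In untreated PCGF35 from ES day 0 to NPC day 6, 1 rose and 2 fell, with a median of 0.056, beside the same 31.1% of all genes. F5, the homologous cofactor factor V, rose by 1.53 ± 0.41 (adjusted p = 0.00498). Vwf, the carrier of factor VIII, fell by 2.14 (SE 0.64, adjusted p = 0.0110), and Lman1, its cargo receptor from the endoplasmic reticulum, fell by 0.50 (SE 0.13, adjusted p = 0.00420). The most abundant were Lman1 (83.7 CPM), Lrp1 (53.4 CPM) and Vwf (26.8 CPM).

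As profiles over the study F8 and Pim2 were not among each other's nearest genes. The root mean square difference between their pooled shares over the 28 groups was 15.1 points, which placed Pim2 at number 115 of 232 genes by likeness to F8 and F8 at number 191 by likeness to Pim2. Closest to F8 were Zdhhc9 (8.89 points), Syn1 (8.90 points) and Wdr45 (8.96 points), against a median gene at 15.2 points. Closest to Pim2 were Usp11 (6.94 points), Mcf2 (7.09 points) and Hcfc1 (7.19 points), against a median of 10.8 points. The 28 groups share lines, clones and days, so these distances are a description.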

How the data were processed

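Chromatin-associated RNA was sequenced in 58 libraries of 28 groups with a stranded TruSeq kit. Per the study's methods and the submitters' processing notes, the authors removed ribosomal reads with Bowtie2 2.3.2, aligned with STAR 2.4.2a to mm10 with variant sites masked, split fragments by allele, and used strand-aware featureCounts to count them over each transcript span. The deposited counts are raw whole numbers for total, Dom and Cast fragments. The deposited table of ratios holds the fraction of Dom in Dom plus Cast for 246 genes that passed the authors' filter, with 6 values missing, and differed from the fraction computed here from the counts by at most 5.6e-16. Masking limits reference bias, and fragments without a variant site carry no allele, so allelic values rest on part of the counts.

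Shares were tested with edgeR 4.0.16 (R 4.3.3), by a quasi-likelihood fit of Dom and Cast counts with an allele term per group over all libraries and 246 genes. Total RNA was tested over 16227 genes and alleles over 246 genes with TMM scaling. Shares less the library median were tested with limma 3.58.1. P-values were adjusted by Benjamini-Hochberg at 0.05, and ± after a log2 value is the SE. Alternatives were limma on the ratios, all X-linked genes (399), the compared groups alone, a replicate block, RLE factors, no filter on low counts, DESeq2 1.42.0 and leaving out each library. The fits were also run on simulated data, with an outcome that is not reported here. Exact permutation used scipy 1.17.1.

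Members and lists were chosen with earlier results of these data known. Named by rule were F8 and Pim2, Xist and Spen, the next 2 genes in the rule's order (1 is not reported here), the nearest 4 neighbours, the 3 genes of most like shares (median of at least 20 allelic fragments), and called or most abundant list members. Nap1l2 was named after its value was seen. Day 0 comparisons with SPOC and comparisons of falls were added after values were seen.

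Clones and numbers were checked for pairing by the correlation of deviations from group means. For log2 CPM it exceeded 0.1 in 56 of 56 pairs for PCGF35_SPOC clones, 12 of 12 for DelPID_SPOC, 5 of 13 for SPOC and 4 of 4 for PCGF35 numbers. For the log2 odds of alleles it did so in 44 of 56, 8 of 12, 2 of 13 and 2 of 4, in the same order. Clones pair libraries by the labels. No replicates agreed within sampling noise, with chi-square per degree of freedom of 11.5 to 138 over 32 pairs.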

Additional observations from a re-analysis of the deposited data

Results flagged for a closer look

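The change of the F8 share with dTAG-13 differed between the lines, by -1.43 in log2 odds on NPC day 3 (adjusted p = 0.0203, edgeR) and by -3.84 on NPC day 6 (adjusted p = 0.000726), being smaller in PCGF35_SPOC than in PCGF35. Limma on the ratios called neither. The fall of the F8 share from ES day 0 was smaller in SPOC than in untreated PCGF35 by 1.43 on NPC day 3 (adjusted p = 0.00249), and smaller in PCGF35_SPOC than in PCGF35 by 6.00 on NPC day 6 (adjusted p = 1.55e-11). For Pim2 the latter difference was 2.54 (adjusted p = 0.00103), and its call was lost without replicate 1 of PCGF35_SPOC on ES day 0 (1.00, adjusted p = 0.316). Each stands here because the same contrast was tested for a difference between lines and passed. For the change with dTAG-13, 9.35% and 15.4% of the 246 genes were called on NPC days 3 and 6. For the falls 67.9% and 87% were called, with medians of 1.45 and 2.74, so being called did not set F8 and Pim2 apart there. The day 6 values of F8 rest on 0 and 4 Dom fragments in untreated PCGF35. The comparisons of falls were added after values were seen.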

How the results depend on the processing

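Under the alternatives, 445 of 518 values of the 60 results that answer a comparison kept their direction and their side of the threshold, as did 348 of 396 values of 62 other results. With limma on the ratios, as fractions, Pim2 was 0.197 in PCGF35_SPOC against PCGF35 on ES day 1 (ratios of at least 10 fragments), 0.109 and 0.165 with dTAG-13 in PCGF35 on NPC days 3 and 6, -0.0084 with dTAG-13 in PCGF35_SPOC on ES day 1, -0.227 from ES day 0 to NPC day 6 in untreated PCGF35_SPOC and 0.0249 for the dTAG-13 effect between lines on NPC day 6. F8 was 0.112 with dTAG-13 in PCGF35_SPOC on NPC day 6 (ratios of at least 10 fragments) and -0.172 and -0.154 for the effect between lines on NPC days 3 and 6. With all X-linked genes in the fit that effect for F8 on NPC day 3 was -1.43 and lost its call. With the compared groups alone F8 was 0.65 in PCGF35_SPOC against PCGF35 on ES day 1 and Pim2 was 1.23 with dTAG-13 in PCGF35_SPOC on NPC day 6. With the replicate block F8 was 0.70 with dTAG-13 in PCGF35_SPOC on NPC day 6 and Pim2 was -1.08 from ES day 0 to NPC day 6 in untreated PCGF35_SPOC, and the block changed no other call. Over the NPC strata alone dTAG-13 in PCGF35 gave 24.3 points for F8 and 13.7 points for Pim2 (exact permutation p = 0.0556, the smallest possible there). The cause of these changes was not tested. Where a library was left out of a group of 2, the library that remained was assumed to vary like the other groups. Without replicate 2 of untreated PCGF35 on NPC day 6 the fitted values of F8 rest on 0 Dom fragments and depend on the prior count. By median, allelic depth was lower for Pim2 than for F8, with 7 allelic fragments of Pim2 in DelPID NPC day 6 replicate 1. For the share, in log2 odds, values without a library ranged in PCGF35_SPOC against PCGF35 on ES day 1 F8 from 0.046 to 1.10 and Pim2 from 0.73 to 1.74 and in DelPID_SPOC against DelPID on NPC day 3 F8 from 0.63 to 0.96 and Pim2 from 1.17 to 1.97. In DelPID_SPOC against DelPID on NPC day 6 F8 ranged from 0.94 to 1.23 and Pim2 from 1.45 to 2.81 and in PCGF35 dTAG-13 against untreated on ES day 1 F8 from -0.50 to 0.59 and Pim2 from -0.094 to 0.17. In PCGF35 dTAG-13 against untreated on NPC day 3 Pim2 ranged from 0.64 to 1.04 and in PCGF35_SPOC dTAG-13 against untreated on ES day 1 F8 from -0.19 to 0.54 and Pim2 from -0.66 to 1.00. In PCGF35_SPOC dTAG-13 against untreated on NPC day 3 F8 ranged from -0.041 to 0.60 and Pim2 from -0.017 to 0.37 and in PCGF35_SPOC dTAG-13 against untreated on NPC day 6 Pim2 from 0.74 to 1.58. In SPOC ES day 1 against day 0 F8 ranged from -0.35 to 0.079 and in PCGF35_SPOC untreated NPC day 6 against ES day 0 Pim2 from -2.59 to -0.38. In DelPID_SPOC NPC day 6 against ES day 0 F8 ranged from -0.65 to 0.041 and in the dTAG-13 effect in PCGF35_SPOC less that in PCGF35 on NPC day 3 F8 from -1.78 to -1.06. In the dTAG-13 effect in PCGF35_SPOC less that in PCGF35 on NPC day 6 F8 ranged from -8.78 to -2.59 and in SPOC against PCGF35_SPOC untreated on ES day 0 Pim2 from -1.07 to 1.13. For the share relative to the chromosome, as a fraction, values without a library ranged in PCGF35_SPOC against PCGF35 on ES day 1 F8 from -0.133 to 0.0448 and Pim2 from -0.0314 to 0.134 and in PCGF35_SPOC against PCGF35 on NPC day 3 Pim2 from -0.0598 to 0.0209. In PCGF35 dTAG-13 against untreated on ES day 1 F8 ranged from -0.15 to 0.0281 and in PCGF35 dTAG-13 against untreated on NPC day 3 Pim2 from -0.0674 to 0.0187. In PCGF35_SPOC dTAG-13 against untreated on ES day 1 F8 ranged from -0.0624 to 0.0518 and Pim2 from -0.178 to 0.0993 and in PCGF35_SPOC dTAG-13 against untreated on NPC day 6 F8 from -0.129 to 0.00427 and Pim2 from -0.0102 to 0.0413. For the total RNA, in log2, values without a library ranged in SPOC against WT on NPC day 3 Pim2 from -1.11 to 0.48 and in PCGF35_SPOC against PCGF35 on NPC day 6 F8 from -0.24 to 0.29. In DelPID_SPOC against DelPID on NPC day 6 F8 ranged from -0.14 to 1.18 and Pim2 from -0.21 to 1.52 and in PCGF35 dTAG-13 against untreated on NPC day 6 Pim2 from -0.01 to 0.38. In PCGF35_SPOC dTAG-13 against untreated on NPC day 6 F8 ranged from -0.74 to 0.71 and in PCGF35 untreated NPC day 6 against ES day 0 Pim2 from 1.71 to 2.01. For the Dom RNA, in log2, values without a library ranged in PCGF35_SPOC dTAG-13 against untreated on NPC day 6 F8 from -0.61 to 1.11 and Pim2 from -0.38 to 0.0034. For the Cast RNA, in log2, values without a library ranged in DelPID_SPOC against DelPID on NPC day 6 F8 from -0.63 to 0.61 and Pim2 from -0.78 to 1.23 and in PCGF35_SPOC dTAG-13 against untreated on NPC day 6 F8 from -1.07 to 0.31. In SPOC ES day 1 against day 0 Pim2 ranged from -0.064 to 0.28. For the share over strata, in points, values without one replicate number ranged in dTAG-13 against untreated in PCGF35 F8 from 15.6 to 17.7 and Pim2 from 8.43 to 10.1.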
